A study of Caenorhabditis elegans with 36 samples.

Results

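The 59 genes described here encode proteins of the cytosolic ribosome of Caenorhabditis elegans, 37 of the large subunit (the rpl genes, from rpl-1 to rpl-39) and 22 of the small subunit (the rps genes, from rps-0 to rps-21). They were taken from a list of gene identifiers drawn up with earlier results of these data known, and all 59 were found among the 24931 named genes and passed the filter on low counts in every comparison. RNA was sequenced from whole animals in 36 libraries, 3 in each of 12 groups. The study compared the wild type N2 with mbl-1(tm1563), an allele of the muscleblind splicing factor gene. It also compared worms that make RNA with 123 CUG repeats with controls that make RNA with 0 CUG repeats. The repeats lie in the 3' untranslated region of gfp, and the myo-3 promoter drives that transgene mainly in body wall muscle, which is a part of the cells in a whole-animal sample. Strain 1 of 123CUG holds mgIs64[myo-3p::gfp::3'utr123(CUG)] and strain 2 holds mgIs84, strain 1 of 0CUG holds mgIs65 and strain 2 holds mgIs85. Each genotype was taken at 2 labelled stages, L4 (the final larval stage) and 2-day adult, and all animals were synchronised with hypochlorite and fed HT115 bacteria with an empty RNAi vector. The labels do not say whether the 3 libraries of a group came from separate cultures, so p-values reflect only how much these libraries varied, part of which may be technical.

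Ribosomal proteins surround the ribosomal RNA, and most are needed in equal amounts because a ribosome holds a single copy of nearly every one. Their messenger RNAs are among the most abundant in a growing cell, and many are held at the level of translation as well as of transcription. In C. elegans the germ line of the adult is a main site of ribosome production, and some ribosomal proteins are encoded by a pair of closely related genes, called paralogues. In RNA from whole animals, fewer cells of a type and less RNA per cell cannot be told apart.

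Libraries held 25239933 to 47903768 reads in named genes. Ribosomal RNA took 0.219% to 9.97% of them, and the lowest shares, 0.305% and 0.219%, were in the second 2-day adult libraries of 123CUG strain 2 and 0CUG strain 1. Adult transcripts were present in N2 and mbl-1 libraries with the L4 label: the mean level of vit-2, a yolk protein gene of adults, was 34020 and 33910 CPM (reads scaled to the library total) there, but 527.7 to 2134 CPM in the 4 transgenic L4 groups. In 2-day adults of N2 and of mbl-1 the third library was shifted farthest from the rest of its group, by the median oocyte gene. The shift was -1.05 in N2 and 1.23 in mbl-1 on the log2 scale. For the first and second libraries it was 0.729 and 0.346 in N2 and -1.04 and -0.128 in mbl-1. The mbl-1 libraries were thus spread out, with the first nearly as far as the third. The reads of mbl-1 are summed over the gene, do not resolve the tm1563 deletion and check nothing.

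The 59 genes took between 7.02% and 13.6% of the reads of a library. In the 4 transgenic L4 groups the share averaged 12.29% ± 0.7043, 13.12% ± 0.4768, 11.63% ± 1.269 and 12.65% ± 0.3906 (SD, n = 3) for 123CUG strain 1, 123CUG strain 2, 0CUG strain 1 and 0CUG strain 2. In the adults of the same strains it averaged 9.676% ± 0.1738, 10.23% ± 0.7637, 10.53% ± 0.7428 and 7.524% ± 0.6665. The 3 adult libraries of 0CUG strain 2, at 8.281%, 7.267% and 7.024%, were the lowest of all 36. In N2 the share averaged 9.531% ± 0.5563 under the L4 label and 9.589% ± 0.2302 in adults, and in mbl-1 it averaged 10.72% ± 0.4289 and 9.551% ± 0.4442. Large and small subunits moved together: the ratio of the median large subunit gene to the median small subunit gene, on the scale of reads per kilobase of gene and library size (RPKM), had group means from 0.8696 to 0.9713.

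**Figure D1:**
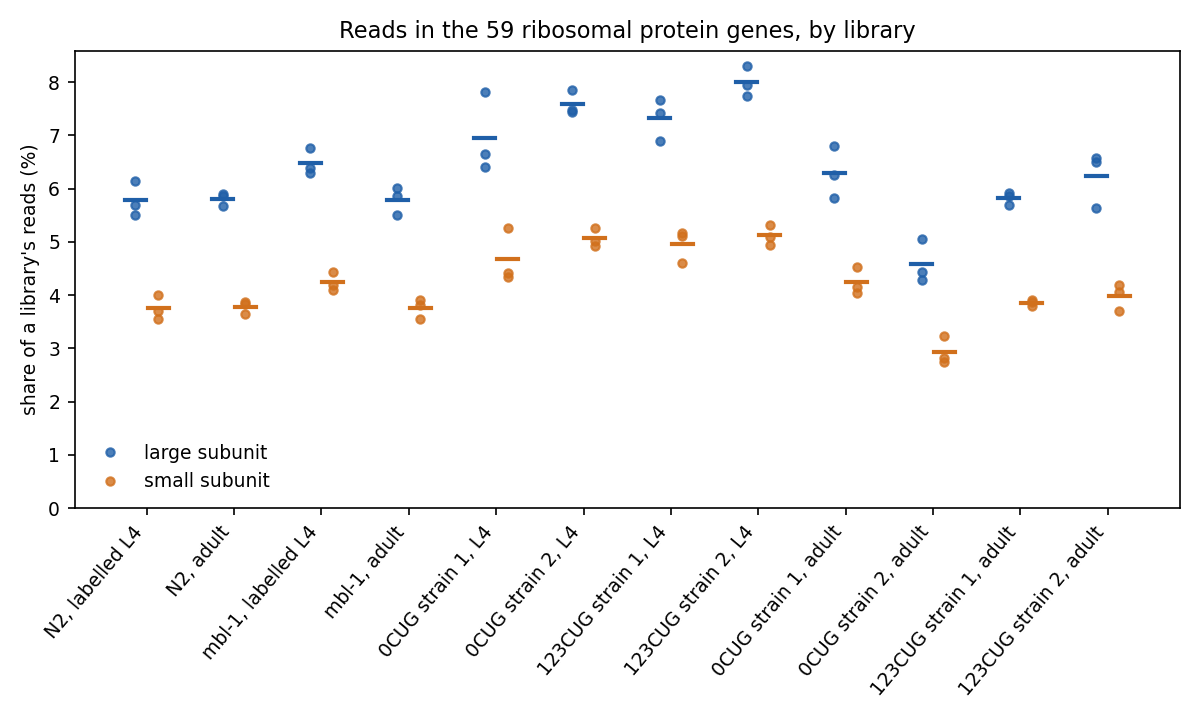
Share of a library's reads in percent taken by the 37 large subunit genes (blue) and the 22 small subunit genes (orange) in each of 12 groups; points are libraries and bars are means of 3. The transgenic L4 groups are highest, and the adults of 0CUG strain 2 are lowest with means of 4.592% and 2.932%.

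Levels per length differed more among large subunit genes than among small ones. Averaged over 36 libraries, the large subunit genes ran from 829.5 to 6200 RPKM, a 7.474-fold range around a median of 2530 RPKM. The small subunit genes ran from 1803 to 4235 RPKM, a 2.349-fold range around 2721 RPKM. The highest large subunit gene was rpl-39 (6200 RPKM), followed by rpl-36 (4728 RPKM), and the lowest were rpl-25.1 (829.5 RPKM) and rpl-7A (1355 RPKM). Of the small subunit, rps-21 (4235 RPKM) and rps-8 (3928 RPKM) were highest, and rps-14 (1905 RPKM) and rps-20 (1803 RPKM) were lowest. The order at both ends of the large subunit differed by group: the median of rpl-39 was 1656 RPKM in the 12 N2 and mbl-1 libraries, where that of rpl-36 was 5911 RPKM. In the 12 transgenic L4 libraries the median of rpl-25.1, 1411 RPKM, was above those of rpl-11.1 and rpl-25.2, 430.9 and 917.7 RPKM. The genes lie on every chromosome, with 19 on chromosome I, 15 on III, 11 on IV, 7 on II, 5 on V and 2 on X. Of the 59, 13 overlap another gene on the same strand and 14 overlap one on the other strand. The strand setting of the counting is not given in the sources used here, so reads of these 22 genes in all may include reads of the partner.

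Most members kept their place among the 59 within a limit of 0.5 log2 units. After each library's median over the 59 genes was taken out, 49 genes stayed within 0.5 log2 units of their own usual place in every group, and 10 did not. Those 10 were rpl-11.1, rpl-11.2, rpl-17, rpl-25.1, rpl-25.2, rpl-33 and rpl-39 of the large subunit, and rps-3, rps-5 and rps-21 of the small. At the limit, rpl-36 was the nearest inside (0.4) and rps-5 the nearest outside (0.517). The limit is wide: rpl-36 ran from 0.4 in N2 labelled L4 to -0.292 in both 0CUG strains at L4. Across the 36 libraries, the correlation between pairs of genes on the log2 RPKM scale had a median r of 0.696 within the large subunit. It was 0.812 within the small and 0.75 between them. In the same order it was 0.788, 0.87 and 0.831 over the 24 transgenic libraries. Over the 12 N2 and mbl-1 libraries it was 0.712, 0.823 and 0.788. These are descriptions: the genes share libraries, depth and scaling. The 10 genes past the limit are described with the comparison in which each stood out.

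**Figure D2:**
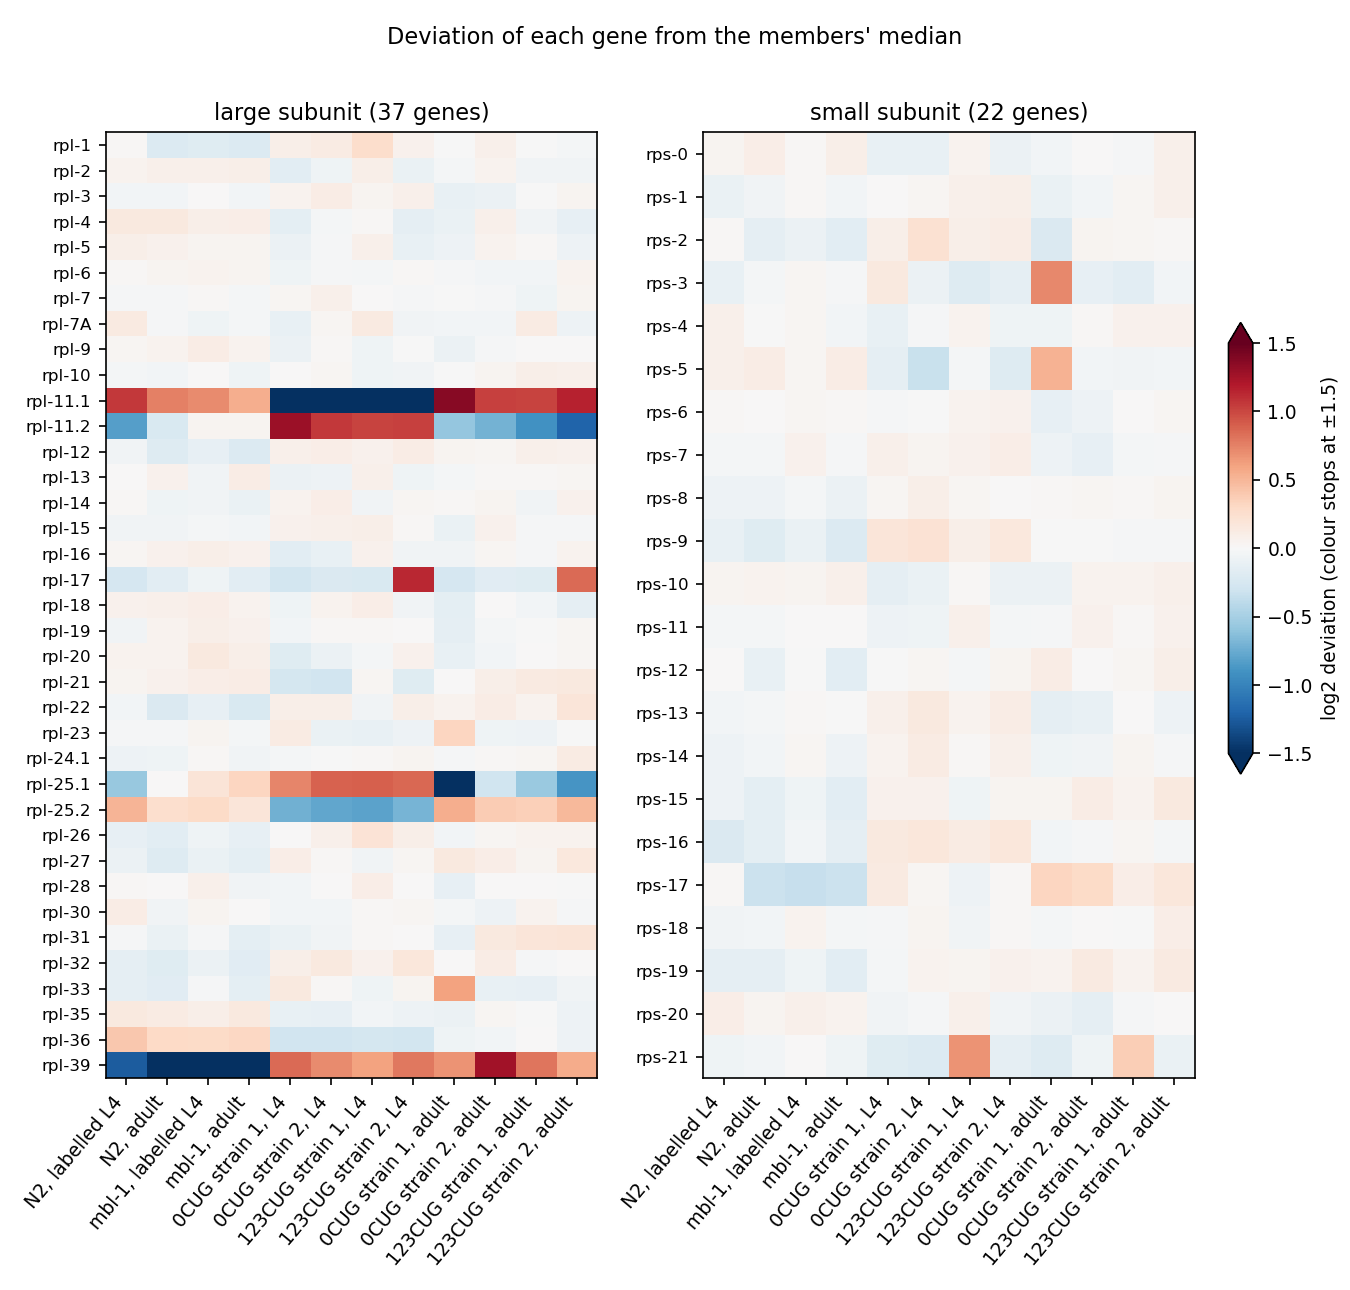
Heat map of each gene's mean log2 deviation in 12 groups, after the library's median over the 59 genes and the gene's own usual level were taken out; red is above and blue below, and the colour stops at 1.5. Most rows are pale, and rpl-11.1, rpl-11.2, rpl-25.1, rpl-25.2, rpl-39, rpl-17, rps-3, rps-5, rpl-33 and rps-21 carry the strong colours.

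From L4 to the 2-day adult, transcripts of most ribosomal proteins fell in the mean of both strains of each construct, and the paralogues rpl-11.1 and rpl-25.2 rose. In 0CUG, 52 of 59 members fell (32 large, 20 small) and 2 rose, where 48.3% of all 17248 genes tested fell and 34.4% rose. In 123CUG, 49 fell (30 large, 19 small) and 2 rose, where 47.1% of all genes fell and 35.5% rose. The members' median log2 fold change was -0.410 in 0CUG and -0.271 in 123CUG. That of all genes tested was -0.476 and -0.409, so the members stood 0.066 and 0.138 log2 units above it. With DESeq2's size factors in edgeR, the members' medians were -0.435 and -0.34, and those of all genes -0.5 and -0.479. Calls are by edgeR's quasi-likelihood test at a Benjamini-Hochberg adjusted p under 0.05 over all genes.

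The ordinary members that fell most were of the small subunit in 0CUG. The level of rps-2, a protein of the messenger RNA entry side, had a lowest, median and highest value of 1763, 2514 and 2737 RPKM in the 6 L4 libraries of 0CUG and of 1111, 1479 and 1748 RPKM in the 6 adult libraries. These ranges did not overlap, and the log2 fold change of rps-2 was -0.66 (SE 0.111, edgeR adjusted p = 5.25e-06). That of rps-13 was -0.66 (SE 0.0876, edgeR adjusted p = 1.41e-07) and that of rps-9, which in yeast affects decoding accuracy, was -0.63 (SE 0.0803, edgeR adjusted p = 7.08e-08). In 123CUG the largest falls outside the paralogue pairs were of rpl-1, a protein of the stalk beside the exit site (-0.45, SE 0.102, edgeR adjusted p = 0.000282), rps-16 (-0.41, SE 0.0941, edgeR adjusted p = 0.000288) and rps-9 (-0.41, SE 0.0801, edgeR adjusted p = 4.43e-05). In 0CUG 5 members were not called, rpl-21, rpl-36, rpl-39, rps-3 and rps-5, with log2 fold changes from -0.18 to 0.04. The difference of the stage change between 123CUG and 0CUG was not called by edgeR for any member, while 12 had an unadjusted p under 0.05, DESeq2 called 0, and 5.93% of all genes were called.

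The paralogue pairs exchanged places between the stages. The protein of rpl-11.1 and rpl-11.2 binds the 5S ribosomal RNA. In the 12 transgenic L4 libraries rpl-11.1 (T22F3.4, chromosome V, 3585315 to 3586064, minus strand, build WBcel235) had a lowest, median and highest level of 290.6, 430.9 and 649.1 RPKM, and in the 12 adult libraries of 1887, 2794 and 3480 RPKM. In the same libraries rpl-11.2 (F07D10.1, chromosome X, 2241760 to 2242620, minus strand) stood at 2869, 2989 and 3713 RPKM in L4 and at 369.3, 669.6 and 951.1 RPKM in adults. No adult library overlapped an L4 library for either gene. The log2 fold change of rpl-11.1 was 2.56 in 0CUG (SE 0.117, edgeR adjusted p = 1.08e-16) and 2.84 in 123CUG (SE 0.119, edgeR adjusted p = 1.59e-17). That of rpl-11.2 was -2.23 in 0CUG (SE 0.128, edgeR adjusted p = 2.01e-14) and -2.31 in 123CUG (SE 0.128, edgeR adjusted p = 1.02e-14).

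The share of rpl-11.1 in the sum of the pair was 10.8% to 13.2% in the 4 transgenic L4 groups and 78.3% to 84.4% in the adult groups (means of 3). The sum of the pair was 3267 ± 89.3 RPKM in L4 and 3444 ± 18.6 RPKM in adults of 123CUG strain 1, and 3517 ± 248 and 3496 ± 254 RPKM in 123CUG strain 2. In 0CUG strain 1 it was 3755 ± 526 RPKM in L4 and 4117 ± 329 RPKM in adults, and in 0CUG strain 2 it was 3515 ± 249 RPKM in L4 (SD, n = 3) and 3022, 2537 and 2607 RPKM in the adult libraries. Reads that match both copies may have been split or dropped in the counting, which is not described in the sources used here.

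The second pair, rpl-25.1 and rpl-25.2, encodes a protein at the mouth of the tunnel through which the new chain leaves. In L4 rpl-25.1 (F55D10.2, chromosome X, 4715176 to 4715801, plus strand) had a lowest, median and highest level of 1002, 1411 and 1562 RPKM over the 12 transgenic libraries, and in adults of 187.2, 376.8 and 479 RPKM. The level of rpl-25.2 (F52B5.6, chromosome I, 8329067 to 8329684, minus strand) was 778.3, 917.7 and 1065 RPKM in L4 and 1137, 1687 and 1944 RPKM in adults. Again no adult library overlapped an L4 library. The X-linked copy rpl-25.1 fell, with a log2 fold change of -2.17 in 0CUG (SE 0.111, edgeR adjusted p = 1.1e-15) and -1.85 in 123CUG (SE 0.11, edgeR adjusted p = 2.33e-14). The sum of this pair in 0CUG strain 2 was 2386 ± 83.3 RPKM in L4 and 1741 ± 212 RPKM in adults, and in the other strains it lay between 2031 and 2441 RPKM (means of 3). The autosomal copy rpl-25.2 rose by 0.80 (SE 0.0853, edgeR adjusted p = 3.02e-09) and 0.90 (SE 0.0855, edgeR adjusted p = 3.05e-10). The 2 members that lie on the X chromosome, rpl-11.2 and rpl-25.1, are thus the pair members that fell, and both partners lie on autosomes.

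**Figure D3:**
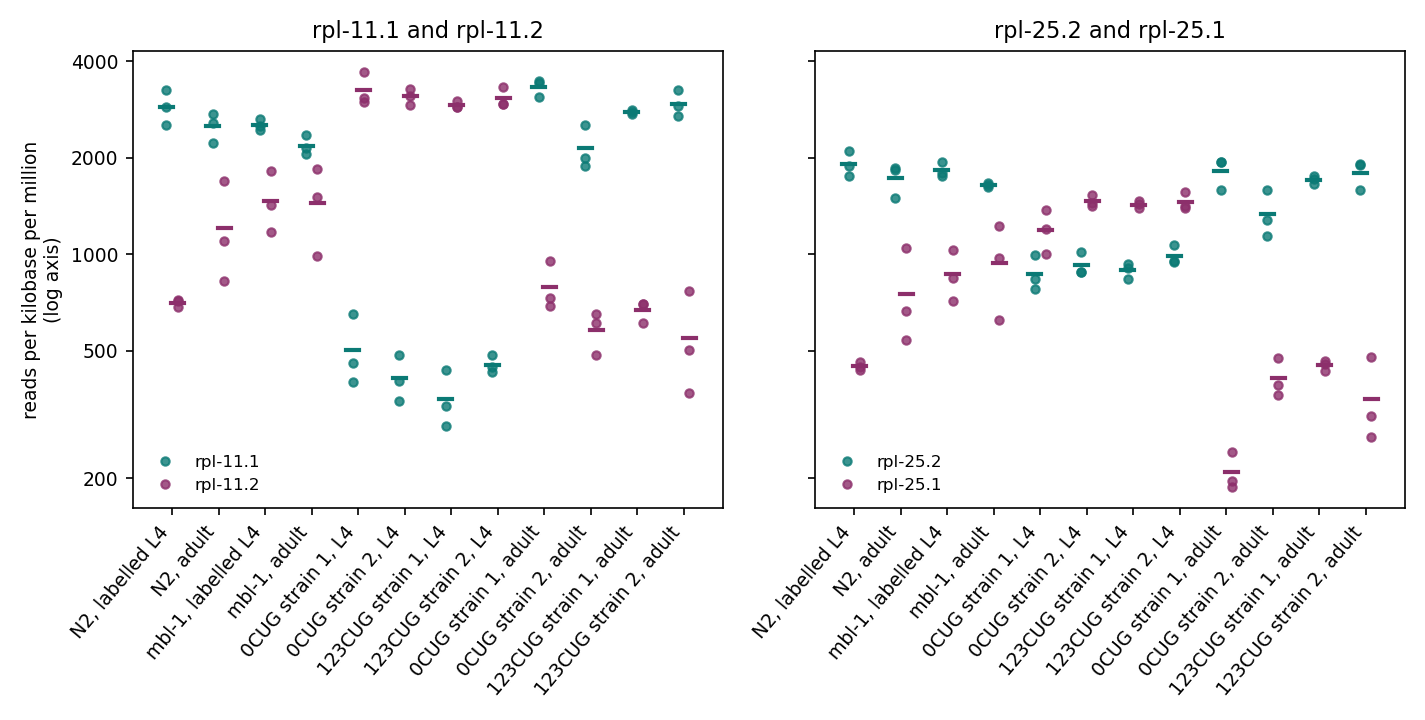
Levels of the paralogue pairs in RPKM on a log axis, by library in 12 groups; points are libraries and bars are means of 3. In the transgenic strains rpl-11.1 and rpl-25.2 are low in L4 and high in adults, their partners do the opposite, and all N2 and mbl-1 groups have the adult order.

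In N2 and mbl-1 the pairs had the adult order under both labels. The share of rpl-11.1 in its pair averaged 80.2% ± 2.37 in N2 labelled L4, 67.9% in N2 adults (56.9% to 76.9% over the libraries), 63.5% ± 4.51 in mbl-1 labelled L4 and 60.6% ± 9.06 in mbl-1 adults (SD, n = 3). The share of rpl-25.2 in its pair averaged 81% ± 1.6, 69.9% ± 9.76, 68.1% ± 3.16 and 64.1% ± 8 in the same groups. The lowest of the 12 libraries was at 52.7% for rpl-11.1, above every transgenic L4 library.

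Between adults and animals labelled L4, edgeR called none of the 59 members in N2, where 2 had an unadjusted p under 0.05, and none in mbl-1, where 0 had. DESeq2 called 0 in both, and 0% of all genes rose and 0% fell in N2 by edgeR, against 0.178% and 0.385% in mbl-1. The members' median log2 fold change was 0.142 in N2 and -0.103 in mbl-1. The difference of these changes was not called for any member by either tool, 1 had an unadjusted p under 0.05, and 0.00713% of all genes were called by edgeR.

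Markers of other tissues moved with stage in the transgenic strains. Of 27 oocyte and early embryo genes, 26 rose from L4 to adult in both 0CUG and 123CUG, and their summed level was 347.9 to 582.4 RPKM over the L4 libraries and 7303 to 8544 RPKM over the adults. Of 30 body wall muscle genes 29 fell in both, from 9346 to 16290 RPKM in L4 libraries to 2307 to 5015 RPKM in adults. Of 28 neuron genes 25 fell in both, from 676.2 to 940.6 RPKM to 269 to 393.8 RPKM. Of 38 sperm genes, 36 fell in 0CUG and 32 in 123CUG, and their summed level was 384 to 1899 RPKM in L4 and 27.55 to 64.67 RPKM in adults, and that of 18 intestine genes was 7736 to 10440 RPKM in L4 and 2285 to 7661 RPKM in adults. Every oocyte, muscle and intestine gene had reads in every group. The part of these tissues in the changes of the members was not tested.

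Other lists of the translation machinery were read beside the members. Of 47 ribosome biogenesis genes, 40 rose and 2 fell in 0CUG (median log2 0.737), and 43 rose and 2 fell in 123CUG (median log2 0.876). The largest rise among them was of lpd-2 (1.66 in 0CUG) and the largest fall of pes-4 (-1.6), genes placed on that list although they are not known as ribosome assembly factors. Of 30 initiation factor genes, 17 rose and 4 fell in 0CUG and 24 rose and 3 fell in 123CUG. The largest rise was of ife-3 (3.02 and 3.03), a cap-binding protein, and the largest fall of ife-2 (-1.91 and -1.67), another cap-binding protein. Of 9 elongation factor genes, 3 rose and 4 fell in 0CUG and 4 rose and 2 fell in 123CUG, led by iff-1 (2.68 and 3.14) and iff-2 (-2.52 and -2.36), a further pair of paralogues for 1 factor. Of 69 mitochondrial ribosomal protein genes, 16 rose and 27 fell in 0CUG and 21 rose and 26 fell in 123CUG. Of 15 genes of growth signalling, 10 rose and 5 fell in both. Of 25 further cytosolic ribosomal protein genes, such as rpl-42, 20 fell in 0CUG and 11 in 123CUG, and none rose.

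**Figure D4:**
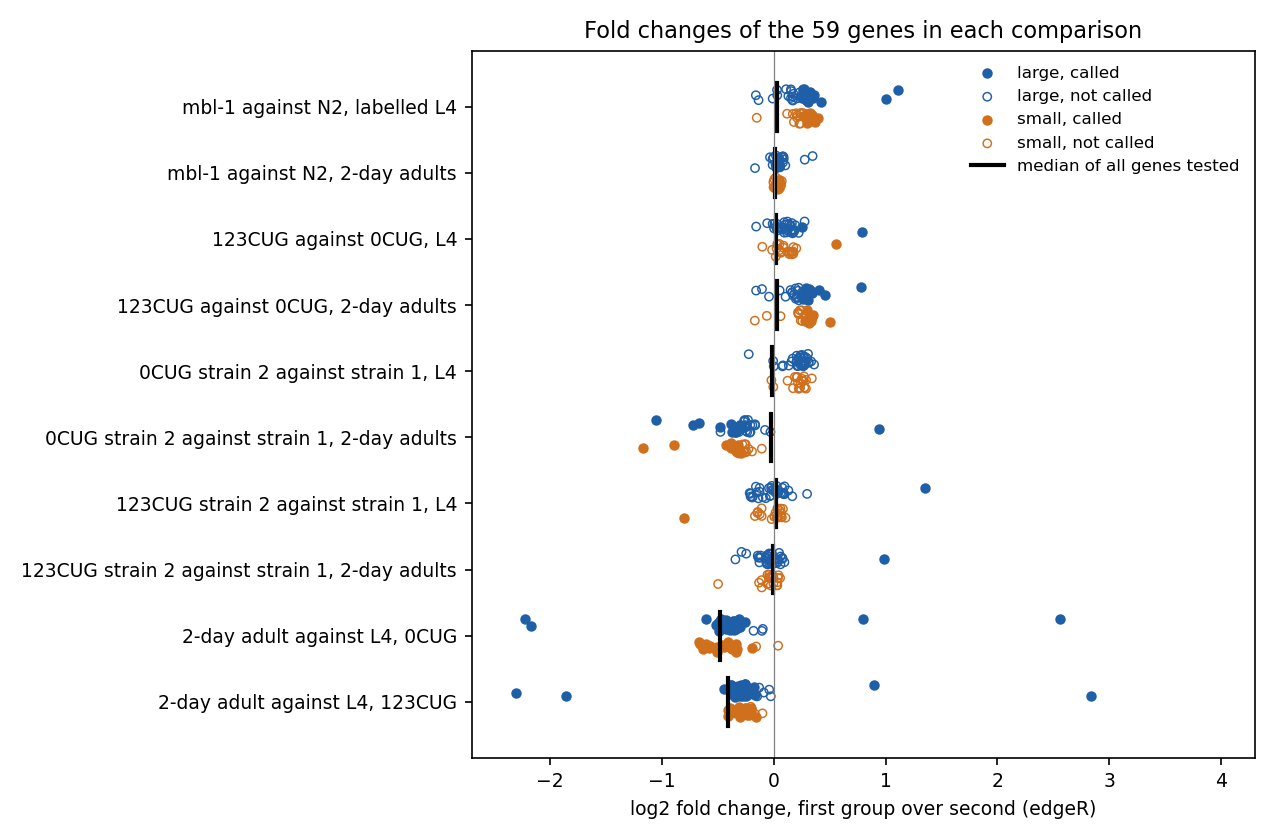
Log2 fold changes (first group over second, edgeR) of the 59 genes in 10 comparisons; filled points were called at an adjusted p under 0.05, blue is the large and orange the small subunit, and black bars are the median of all genes tested. The 4 paralogues lie far from the rest in both stage comparisons, and most members lie right of the bar in the adult 123CUG comparison and left of it between the adults of the 0CUG strains.

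The number called differed between single strains. In 123CUG, 21 members fell in strain 1 and 39 in strain 2 and 2 rose in each, where 41.6% and 43.1% of all genes fell and 33.4% and 32.5% rose. With DESeq2's size factors in edgeR, 47 and 43 fell. The stage change was not the same in both 0CUG control strains. In strain 1, 20 of 59 members fell and 4 rose, where 46.5% of all genes fell and 31.2% rose, and in strain 2, 55 fell and 2 rose, where 39.6% of all genes fell and 32.9% rose. The median log2 fold change of the members was -0.201 in strain 1 and -0.661 in strain 2, and that of all genes was -0.673 and -0.256. The test of the difference, a comparison added after the data were seen, called 24 members lower and 1 higher in strain 2, where 5.17% of all genes were lower and 15% higher. This count depended on the scaling: with DESeq2's size factors in edgeR it called 51 members lower and 0 higher, and of all genes 2130 lower and 1943 higher, against 892 and 2579 with TMM. Under those factors 11 members fell in strain 1 and 56 in strain 2. The rises in strain 1 beside rpl-11.1 and rpl-25.2 were of rps-3 (0.37, SE 0.106, edgeR adjusted p = 0.00286) and rps-5 (0.43, SE 0.145, edgeR adjusted p = 0.00857). In the 123CUG strains, the same test called 0 members, with 1 at an unadjusted p under 0.05, where 3.78% of all genes were called.

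Adults of the 0CUG strains differed in 23 members, and rps-3, rpl-33, rps-5, rpl-23 and rpl-25.1 stood farthest apart. Of the 59, 22 were lower in strain 2 than in strain 1 (12 large, 10 small) and 1 was higher, where 22.3% of all 14070 genes were lower and 22.3% higher. The members' median log2 difference was -0.280, against -0.0221 for all genes. Leaving out 0CUG strain 1 replicate 3 lowered the count of falls to 6 and leaving out 0CUG strain 2 replicate 1 raised it to 41. It was 7 without 0CUG strain 1 replicate 1 or strain 2 replicate 2, 8 without strain 2 replicate 3, and 11 without replicate 2 of 123CUG strain 2, which shares the fit.

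The largest difference was of rps-3, a protein of the entry channel of the messenger RNA. Its level was 4222, 4734 and 4884 RPKM in adults of 0CUG strain 1 and 2296, 2028 and 1950 RPKM in adults of strain 2. All 3 strain 1 libraries were also above the adults of 123CUG, which lay between 2552 and 3036 RPKM. The log2 difference of rps-3 (C23G10.3, chromosome III, 6206801 to 6207971, plus strand) was -1.17 (SE 0.119, edgeR adjusted p = 2.52e-07). At L4 it was -0.02 (SE 0.104, edgeR adjusted p = 0.957), with 4150, 3162 and 3412 RPKM in strain 1 and 3443, 3566 and 3079 RPKM in strain 2.

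The large subunit gene rpl-33 (F10E7.7, chromosome II, 7105556 to 7106316, plus strand) stood at 3364, 3015 and 3857 RPKM in adults of 0CUG strain 1 and at 1906, 1609 and 1524 RPKM in strain 2. The groups did not overlap, and the log2 difference was -1.05 (SE 0.14, edgeR adjusted p = 6.45e-06). The small subunit gene rps-5 (T05E11.1, chromosome IV, 11110102 to 11111045, minus strand), whose protein lies near the exit site, stood at 3129, 3182 and 3894 RPKM in strain 1 and at 2087, 1907 and 1625 RPKM in strain 2. Its log2 difference was -0.89 (SE 0.135, edgeR adjusted p = 2.88e-05), again without overlap.

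The transcript of rpl-23, a protein of the face that joins the small subunit, stood at 3559, 3008 and 3683 RPKM in adults of 0CUG strain 1 and at 2249, 2060 and 2024 RPKM in strain 2. Its log2 difference was -0.73 (SE 0.123, edgeR adjusted p = 9.34e-05). That of rpl-11.1 was -0.66 (SE 0.13, edgeR adjusted p = 0.000391), with 3415, 3085 and 3480 RPKM in strain 1 and 2536, 1887 and 1999 RPKM in strain 2. The member that went the other way was rpl-25.1, at 196.3, 187.2 and 242 RPKM in strain 1 and 364.4, 475.2 and 389.3 RPKM in strain 2 (log2 difference 0.94, SE 0.172, edgeR adjusted p = 0.000398). The strain 1 adults held the lowest levels of rpl-25.1 of all 36 libraries. Its partner rpl-25.2 was lower in strain 2 (-0.48, SE 0.135, edgeR adjusted p = 0.00671), a call lost without replicate 1 or 3 of strain 1 or replicate 3 of strain 2 (edgeR adjusted p from 0.0515 to 0.0569).

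Neighbours on the chromosome were read beside these genes, 3 on each side among those tested. Beside rpl-33, 5 of 6 were lower in adults of 0CUG strain 2, among them farl-11 (-0.582), mmaa-1 (-0.683), F10E7.5 (-1.04) and F10E7.6 (-1.08). Beside rps-3, 3 of 6 were lower, led by sna-3 (-0.842, edgeR adjusted p = 9.26e-07), 598 bases away. Beside rpl-23, 3 of 6 were lower, and beside rps-5, 1 of 6. Of all genes, 22.3% were lower in this comparison. At L4 none of these 24 neighbours was called, where 0.204% of all genes rose and 0.975% fell.

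Most genes of some other lists of translation were lower in adults of 0CUG strain 2: 43 of 47 ribosome biogenesis genes (median log2 -0.606) and 23 of 30 initiation factors (median log2 -0.386) fell, while 1 and 2 rose, and 57 of 69 mitochondrial ribosomal protein genes fell. Of 9 elongation factors 2 fell and 2 rose, among them eef-1A.2 (0.816), and of 24 further cytosolic ribosomal protein genes 5 fell and 0 rose. Of 18 intestine genes 17 were higher, with a summed level of 2285 to 2717 RPKM in strain 1 and 6220 to 7661 RPKM in strain 2, and the 6 yolk protein genes summed to 12140 to 14910 RPKM in strain 1 and 28580 to 34450 RPKM in strain 2. Of 27 oocyte genes 15 fell and 2 rose, with a sum of 7808 to 8355 RPKM in strain 1 and 7718 to 8091 RPKM in strain 2, and of 30 muscle genes 11 fell and 1 rose. The part of these in the members' difference was not tested.

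At L4 the 0CUG strains stood the other way round, without a call. The members' median log2 difference, strain 2 over strain 1, was 0.240, with 54 of 59 above 0, and edgeR called 0 members, where 0.204% of all 16210 genes rose and 0.975% fell. An unadjusted p was under 0.05 for 36 members, and DESeq2 called 1. In its group, 0CUG strain 1 replicate 1 had the highest share of reads in the 59 genes (13.08% against 11.06% and 10.74%). Without it 34 members were called higher in strain 2, so 1 library decided the count. The share of all genes called without it is not given here.

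In the mean of 2 strains each, 123CUG adults had higher levels of many members than 0CUG adults. The size followed the 0CUG strain compared. The test takes its spread from libraries, so its p-values do not measure the spread between strains. Averaged over both strains of each, 22 of 59 members were higher (12 large, 10 small) and 0 lower, where 5.74% of all genes rose and 4.33% fell. The median log2 fold change was 0.258, against 0.0282 for all genes. Against 0CUG strain 2, 40 members were higher in 123CUG strain 1 and 38 in 123CUG strain 2, where 7.48% and 9.79% of all genes rose and 7.77% and 10.5% fell. Against 0CUG strain 1, 2 rose and 3 fell in each, where 16.8% and 9.1% of all genes rose and 10.8% and 4.83% fell. No member was called higher in all 4 strain pairs, and none was called lower in all 4. In the authors' deposited tables, whose calls use the same threshold, 55 and 37 members rose against 0CUG strain 2, and 10 and 2 rose and 6 and 3 fell against strain 1. Of all genes in the authors' deposited tables, 1294 of 19268 rose and 1584 fell, and 850 of 19331 rose and 1430 fell, against 0CUG strain 2. Against strain 1 they were 2631 and 2371 of 19904, and 1161 and 791 of 20082. The pairs share their 0CUG libraries. DESeq2 called 36 members, and leaving out 1 library gave between 7 and 36. The count was 7 without replicate 1 and 9 without replicate 2 of 0CUG strain 1, and 36, 10 and 8 without replicates 1, 2 and 3 of 0CUG strain 2. It was 8, 9 and 13 without replicates 1, 2 and 3 of 123CUG strain 1, and 9 and 36 without replicates 1 and 3 of 123CUG strain 2.

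The largest rises in 123CUG adults were of rpl-17 and rps-21, followed by rpl-25.1, rpl-31 and rps-1. The gene rpl-31, another protein of the exit tunnel's mouth, had a lowest, median and highest level of 1148, 1468 and 1690 RPKM in the 6 adult libraries of 123CUG and of 917.6, 1135 and 1271 RPKM in those of 0CUG. These ranges overlapped in 1 of the 123CUG libraries, and the log2 fold change was 0.40 (SE 0.102, edgeR adjusted p = 0.0134). The values of rps-1 were 2458, 2673 and 2867 RPKM in 123CUG and 1718, 2087 and 2465 RPKM in 0CUG (log2 fold change 0.35, SE 0.0864, edgeR adjusted p = 0.0107), with an overlap of 1 library from each. The rise of rpl-25.1 (0.46, SE 0.12, edgeR adjusted p = 0.023) was against a low level in 0CUG strain 1 and lost its call without replicate 1 or 2 of 123CUG strain 1, of 0CUG strain 1, or replicate 1 or 3 of 0CUG strain 2 (edgeR adjusted p from 0.0536 to 0.0893). Among other genes of translation, 8 of 30 initiation factors and 5 of 47 biogenesis genes rose and 0 fell. Of 9 elongation factors 3 rose, of 24 further ribosomal protein genes 2 rose, and 0 of either fell. Of 69 mitochondrial ribosomal protein genes 1 rose and 2 fell. Of the tissue markers, 11 of 27 oocyte genes fell and 0 rose, while 8 of 30 muscle genes rose and 2 fell. Of 18 intestine genes 3 rose and 2 fell, 2 of 6 yolk protein genes rose, and no neuron or sperm gene tested was called. The part of these tissues in the members' difference was not tested.

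At L4, 3 of 59 members were higher in 123CUG and 0 lower, where 5.09% of all genes rose and 9.36% fell. They were rpl-17, rps-21 and rpl-20, and the median log2 fold change of the 59 was 0.121, against 0.0181 for all genes. The call of rpl-20 (0.25, SE 0.0808, edgeR adjusted p = 0.0446) was lost without any 1 of the 12 libraries other than replicate 1 of 0CUG strain 1 (edgeR adjusted p from 0.0576 to 0.132). Without that replicate 24 members were called higher, and the share of all genes called in that fit is not given here. Between single strains, 123CUG strain 1 had 12 members higher than 0CUG strain 1 and 1 higher than 0CUG strain 2, where 6.34% and 6.05% of all genes rose and 10.4% and 7.53% fell. Strain 2 of 123CUG had 2 and 1 higher, where 2.92% and 1.45% of all genes rose and 5.86% and 2.33% fell, and none was lower in any of these. No member passed in all 4 strain pairs, and 14 had an unadjusted p under 0.05 in the mean of the strains.

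The highest levels of rpl-17 were in 123CUG strain 2 at both stages, and those of rps-21 at L4 were in 123CUG strain 1. The gene rpl-17 (Y48G8AL.8, chromosome I, 1156577 to 1157462, plus strand) encodes a protein that lines the exit tunnel of the large subunit. At L4 it stood at 9315, 8465 and 9020 RPKM in 123CUG strain 2 and at 3407, 3332 and 3309 RPKM in strain 1. All other L4 and labelled L4 libraries lay between 2756 and 3999 RPKM, so the 3 libraries of 123CUG strain 2 stood alone. The log2 difference, strain 2 over strain 1, was 1.35 (SE 0.102, edgeR adjusted p = 1.38e-08), a 2.558-fold difference. In adults rpl-17 stood at 6634, 5757 and 5282 RPKM in strain 2 and at 3100, 3094 and 2788 RPKM in strain 1, again without overlap, and the log2 difference was 0.98 (SE 0.125, edgeR adjusted p = 2.22e-05).

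One neighbour of rpl-17 moved with it. The gene aps-3, of the small chain of an adaptor complex for vesicle traffic, begins 557 bases away and is transcribed in the opposite direction. It stood at 91.7 CPM in 123CUG strain 2 and 30.4 CPM in strain 1 at L4 (log2 difference 1.53, SE 0.133, edgeR adjusted p = 9.35e-08). In adults it stood at 162 and 61.8 CPM (1.39, SE 0.117, edgeR adjusted p = 6.67e-08). The other neighbours tested, were not called at either stage, and at L4 Y48G8AL.7, 107 bases away on the other side, had a log2 difference of 0.181 and znf-236, 2191 bases away, of 0.351. Of all genes, 4.73% rose and 4.9% fell at L4 between these strains, and 1.93% and 3.46% in adults.

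The gene rps-21 (F37C12.11, chromosome III, 7189141 to 7189638, minus strand), a small protein found in eukaryotic ribosomes, was high in the other 123CUG strain. At L4 it stood at 6772, 7502 and 7582 RPKM in strain 1 and at 4663, 4155 and 4211 RPKM in strain 2, with 3423 to 4397 RPKM over the 6 0CUG libraries. The log2 difference, strain 2 over strain 1, was -0.81 (SE 0.106, edgeR adjusted p = 2.64e-05). In adults it stood at 5020, 5338 and 4979 RPKM in strain 1 and at 4455, 2727 and 3624 RPKM in strain 2. These did not overlap either, but the difference of -0.50 (SE 0.165) was not called (edgeR adjusted p = 0.0946). The 2727 RPKM was of the second library of strain 2, which was low in ribosomal RNA. The 3 members under 400 bases, rps-21 among them, had a median log2 deviation of -0.292 there. Without 123CUG strain 2 replicate 1, 3 members were lower in adults of strain 2. Without 0CUG strain 1 replicate 2, which shares the fit, 1 was. The shares of all genes called in these smaller fits are not given here. The weakly expressed gene F37C12.21, 154 bases away, was lower in strain 2 at L4 as well, at 2.28 CPM against 7.56 CPM (edgeR adjusted p = 0.000468). Apart from rpl-17 and rps-21, no member was called between the 123CUG strains at either stage, where the members' median log2 difference was 0.0123 at L4 and -0.0376 in adults.

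**Figure D5:**
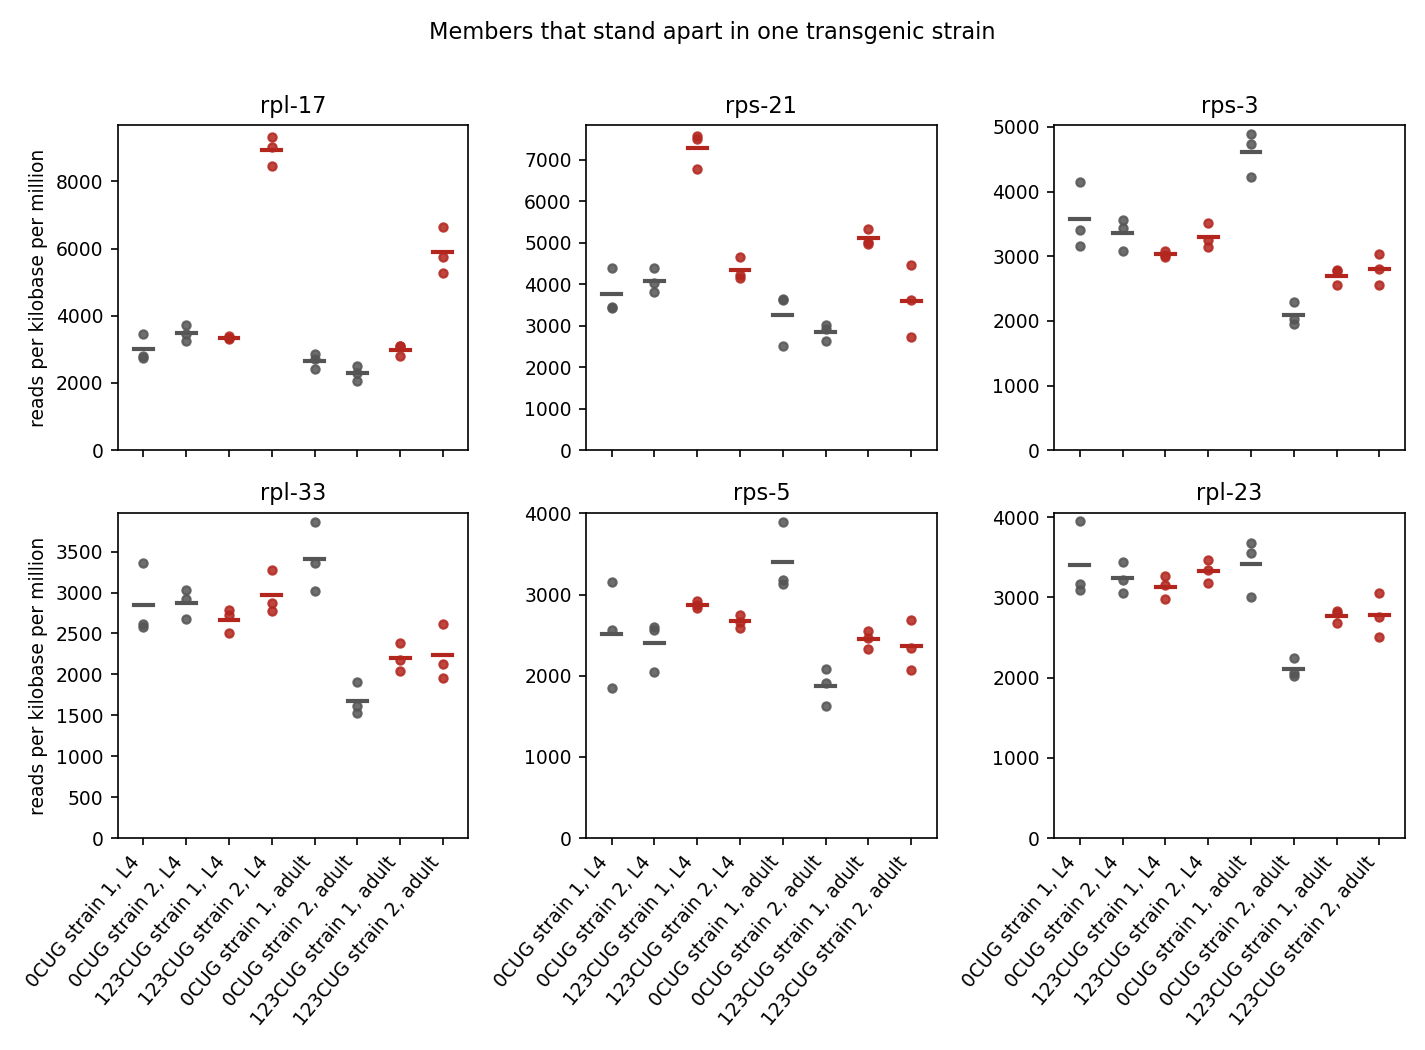
Levels in RPKM of 6 members in the 8 transgenic groups; grey is 0CUG, red is 123CUG, points are libraries and bars are means of 3. The gene rpl-17 is high in 123CUG strain 2 at both stages, rps-21 in 123CUG strain 1 at L4, and rps-3, rpl-33, rps-5 and rpl-23 differ between the adults of the 0CUG strains.

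Under the L4 label, many members were higher in mbl-1 than in N2 and none was lower. Among 59 members, 29 were higher (19 large, 10 small) and 0 lower, where 29.7% of all 13264 genes rose and 21.7% fell. The median log2 fold change was 0.261, against 0.0305 for all genes, and 55 of 59 were above 0. The authors' deposited table called 21 of the 59 higher and 0 lower, where 3544 of its 20263 genes were higher and 3412 lower. The count was 17 with DESeq2's size factors in edgeR and 1 in a fit with the adult libraries. It was 6 and 7 without N2 replicates 2 and 3, and 7 and 18 without mbl-1 replicates 1 and 3.

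The largest rises were of the 2 X-linked paralogues. The level of rpl-11.2 was 683.4, 715.1 and 716.8 RPKM in N2 labelled L4 and 1425, 1168 and 1815 RPKM in mbl-1 labelled L4, without overlap (log2 fold change 1.11, SE 0.129, edgeR adjusted p = 7.3e-06). The level of rpl-25.1 was 434.9, 460.4 and 444.3 RPKM in N2 and 842, 716.2 and 1033 RPKM in mbl-1, again without overlap (1.01, SE 0.117, edgeR adjusted p = 7.25e-06). Their partners rpl-11.1 (-0.14) and rpl-25.2 (-0.01) were not called. After them came rpl-17 (0.42, SE 0.103, edgeR adjusted p = 0.00347), rps-16 (0.39, SE 0.109, edgeR adjusted p = 0.00795) and rps-3 (0.37, SE 0.104, edgeR adjusted p = 0.00856), and in the fit with the adult libraries these 3 and rpl-25.1 were not called (edgeR adjusted p from 0.0518 to 0.0949). The members farthest below the rest were rpl-39 (-0.16) and rps-17 (-0.15), neither called.

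In the same libraries 26 of 30 body wall muscle genes were higher in mbl-1 and 20 of 27 oocyte genes lower. The summed muscle level was 2840 to 3179 RPKM in N2 and 6916 to 10090 RPKM in mbl-1, and the summed oocyte level was 10690 to 13180 RPKM and 9152 to 10580 RPKM. Of 26 neuron genes tested 19 rose, of 18 intestine genes 14 rose, and of 27 sperm genes tested 24 rose. Their part in the members' difference was not tested. Of the other translation lists, 8 of 24 further ribosomal protein genes rose, 4 of 47 biogenesis genes rose and 4 fell, 2 of 30 initiation factors rose and 2 fell, and 3 of 69 mitochondrial ribosomal protein genes rose and 5 fell.

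Between 2-day adults of mbl-1 and N2, edgeR called 0 of 59 members, 0 had an unadjusted p under 0.05 and DESeq2 called 0, while 0% of all 13286 genes were called by edgeR. The members' median log2 fold change was 0.0426. The farthest from it were rpl-25.1 (0.35, SE 0.351) and rpl-11.2 (0.28, SE 0.352) above and rpl-11.1 (-0.17, SE 0.129) below. The level of rpl-25.1 was 540, 663.1 and 1041 RPKM in N2 adults and 1226, 973.2 and 624.8 RPKM in mbl-1 adults. The highest N2 library and the lowest mbl-1 library are the third of each group, which were shifted farthest in the oocyte genes. The first mbl-1 library was shifted nearly as far the other way. Without those 2 libraries, 2 members were called higher in mbl-1. The share of all genes called in that smaller fit is not given here, so the count is no result about the members.

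The gene rpl-39 varied between libraries within 2 adult groups and between the N2 and mbl-1 libraries and the transgenic ones. It encodes a very short protein that lines the exit tunnel, and its gene model of 247 bases is the shortest of the 59 (C26F1.9, chromosome V, 7775738 to 7776086, minus strand, with grl-10 on the other strand). In the 12 N2 and mbl-1 libraries its lowest, median and highest levels were 1294, 1656 and 2424 RPKM, and in the 12 transgenic L4 libraries 6429, 8832 and 10260 RPKM. In the transgenic adults it lay between 6312 and 12300 RPKM in 10 libraries, and stood at 2402 RPKM in the second library of 123CUG strain 2 and at 2594 RPKM in that of 0CUG strain 1. These are the libraries lowest in ribosomal RNA. The 3 members under 400 bases, rpl-39, rpl-36 and rps-21, had median log2 deviations of -0.292 and -0.449 there against the rest of their groups. The part of the ribosomal RNA content was not tested, nor were N2 and mbl-1 tested against the transgenic strains. None of the 28 comparisons and interactions fitted called rpl-39.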

How the data were processed

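Whole-animal RNA of 36 libraries was analysed from the authors' deposited counts of reads by gene, unscaled whole numbers, in 10 tables of 6 libraries each. Per the submitters' processing notes, HISAT2, DESeq2 and the build WBcel235 were used. The sources used here give no version, counting tool, annotation release or strand setting. The 465954 count values held by more than 1 table were equal. The deposited log2 fold changes and adjusted p-values of the authors are cited as calls at an adjusted p under 0.05, and the authors' gene lengths in bases gave RPKM. The 500 unnamed loci (0.0201% to 0.0643% of reads) were left out. Symbols come from Ensembl release 115, in which 24598 identifiers matched and 333 did not.

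Each comparison was fitted across all genes with edgeR 4.0.16 in R 4.3.3 (quasi-likelihood F test, TMM scaling, filterByExpr with a minimum count of 10, robust dispersion), with Benjamini-Hochberg adjustment. mbl-1 and N2 were compared in fits of 6 libraries, 123CUG and 0CUG in fits of 12 with a coefficient per strain, and stages in fits of 24 or 12. Standard errors were derived from the F statistic. In comparisons that average strains, p-values reflect the spread between libraries and not that between strains, of which each construct has 2. DESeq2 1.42.0 was an alternative. Levels are RPKM on 1 TMM scale over 36 libraries, and shares use unscaled reads. Scripts were tested on simulated data.

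The members, gene lists and tests were chosen with earlier results of these data known. Genes named are rpl-17, the paralogue pairs, the 5 largest called rises and falls per comparison, the 2 members farthest from the median on each side, and the highest and lowest by level. Of other lists the largest called rise and fall are named. Neighbouring genes were chosen after values were seen. Alternatives were other scaling, no filter, a replicate block, larger fits and leaving out libraries. At the read totals given, counting error of the members is small beside the spread between libraries.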

Additional observations from a re-analysis of the deposited data

Results flagged for a closer look

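The stage change from L4 to the 2-day adult differed between the 0CUG strains for 6 named members by the test of the difference itself, edgeR's interaction of strain and stage over the 24 transgenic libraries. The comparison was added after the data were seen. On the log2 scale, strain 2 minus strain 1, the difference was -1.053 for rps-3 (SE 0.15, edgeR adjusted p = 1.37e-05), -1.034 for rpl-33 (SE 0.179, edgeR adjusted p = 0.000149) and -0.7915 for rps-5 (SE 0.205, edgeR adjusted p = 0.00642). It was -0.623 for rpl-23 (edgeR adjusted p = 0.00373) and -0.5454 for rpl-25.2 (edgeR adjusted p = 0.0232), and 0.68 for rpl-25.1 (edgeR adjusted p = 0.0249). Over all 59 members the median difference was -0.427, so rpl-25.1 went against the rest. With DESeq2's size factors in edgeR, whose median difference was -0.637, no member was called higher, so the call of rpl-25.1 was lost. No group had the 4 samples that the check for a library far from the others needs.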

How the results depend on the processing

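Over 39 results for named members, 229 values under another setting kept their direction and side of the threshold, 8 lost their call and 0 reversed, and with 1 library left out 610 kept them and 20 lost their call. The strain by stage interactions are not among these results. The counts of members called were less steady. With DESeq2's size factors in edgeR, 17 members rose in mbl-1 under the L4 label, not 29. The fit with the adult libraries gave 1. Without the third 2-day adult libraries, 2 rose in mbl-1 adults. Without the filter on low counts, 6 rose in 123CUG at L4, 3 in 0CUG strain 2 at L4 and 2 in 123CUG strain 2 at L4, and 2 fell in adults of 123CUG strain 2. With DESeq2, 36 rose in 123CUG adults, 1 in 0CUG strain 2 at L4, and 1 fell in adults of 123CUG strain 2. The share of all genes called under these settings is not given here, and the cause of these differences was not tested.

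Same-numbered libraries did not deviate together in every pair: their correlations ran from -0.733 to 0.238 over the fits. Those of libraries with different numbers ran from -0.409 to 0.685. The labels do not say whether equal numbers mark a shared batch, and these correlations cannot settle it. The main fits did not pair libraries. With a replicate block, 19 members rose in mbl-1 under the L4 label, 25 in 123CUG adults, and 1 fell in adults of 123CUG strain 2, and rpl-25.1 was no longer called in 123CUG adults (adjusted p = 0.0513).

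Leaving out 1 library at a time gave 6 to 38 rises in mbl-1 under the L4 label, 2 to 24 in 123CUG at L4, 7 to 36 in 123CUG adults, and 0 to 34 in 0CUG strain 2 at L4. It gave 6 to 41 falls in adults of 0CUG strain 2 and 0 to 3 in adults of 123CUG strain 2, and 51 to 55 and 46 to 53 falls from L4 to adult in 0CUG and 123CUG. Without the 2 libraries low in ribosomal RNA, chosen after seeing the data, 17 members rose in 123CUG adults. In the same setting 23 fell in adults of 0CUG strain 2. For fits with libraries left out, the shares of all genes called are not given here. Their counts show only how steady the calls of the members were.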
